A study of Mus musculus with 2 samples.

Results

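Macrophages take up iron, store it and hand it back to the blood, and 10 genes of this pathway were compared between primary and self-renewing mouse macrophages: the uptake genes Tfrc, Steap3 and Slc11a2, the phagosomal transporter Slc11a1, the ferritin chains Fth1 and Ftl1, the heme oxygenase Hmox1, the exporter Slc40a1, and the regulators Ireb2 and Aco1. The genes were chosen by their role, with earlier results of these data known. Every array probe whose transcript accession belonged to 1 of them was used. The 10 genes had 16 probes. The array held 32988 probes of 22910 named genes, of which 15515 genes had a value. The study expanded bone marrow macrophages in culture and asked which genes accompany their ability to renew themselves. Both samples were bone marrow cells of C57BL/6 mice, labelled male, and both were grown with recombinant human M-CSF at 100 ng/ml. The primary macrophages were taken on day 5 of a culture that the methods run for 5 to 7 days. The self-renewing macrophages came from cells that went on dividing in the same factor and were taken after passage 4. Going by the methods, the cells are taken to be a mixed population and not a single clone. The labels give no altered allele for either sample.

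Iron reaches most cells bound to transferrin, which the transferrin receptor carries into endosomes. There a reductase of the STEAP family reduces the iron and the transporter DMT1 moves it into the cytosol. Macrophages of the spleen, liver and marrow also engulf old red cells, open the heme ring with heme oxygenase, keep iron in ferritin shells and return it to plasma through ferroportin. The iron regulatory proteins bind hairpins in the untranslated ends of these mRNAs, protecting the transferrin receptor mRNA and blocking translation of ferritin and ferroportin, so mRNA and protein of these genes need not move together.

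Each cell type was measured on 1 array with 1 dye, so no difference has a replicate check and no test was possible. The scanner counted 34807 of 56598 gene probes as well above background in the primary sample and 33095 in the self-renewing sample, with no saturated spot. Levels below are log2 intensity relative to the 75th percentile of gene probes of the same array, and differences are self-renewing minus primary. Against these differences stand measures of technical error. The scanner's own error for a member probe, both arrays combined, was between 0.20 and 0.22 on the log2 scale, and the SD between differences of probes of 1 gene was 0.325 over 5077 genes. Over 228 probes with 10 or more spots, the median SD between spots of 1 array was 0.04 in the primary and 0.05 in the self-renewing sample. None of these holds the spread between cultures. The arrays did not match in sex. Xist was detected in the primary sample alone. Of 8 Y-linked genes, 1 was detected in the primary and 5 in the self-renewing sample. The 1 in the primary sample was Sry, detected in both samples. Ddx3y, Eif2s3y, Kdm5d and Uty were detected in the self-renewing sample alone. The primary sample therefore goes against its label of male, and cell type, culture and the sex of the donor mice cannot be told apart.

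All 16 probes of the 10 genes were well above background on both arrays. The largest differences were a higher level of Slc40a1, the iron exporter, and a lower level of Tfrc, the receptor for iron uptake, in the self-renewing macrophages. Hmox1, Steap3 and Slc11a2 were also higher, by 0.59 to 0.93 on the log2 scale, while the ferritin genes differed, on their brighter probes, by less than the error of the scanner. In all, 6 genes lay above 0 and 4 below, of which Fth1 and Ftl1 passed above 0 with the authors' scaled values. The median of the 10 was 0.25 against -0.02 for all named genes. At least 2-fold higher was 1 of 10 genes, where 4.76% of all named genes were, and at least 2-fold lower was 1 of 10, where 8.38% were. The authors' scaled values lift every difference by 0.19, which put the shares of all named genes at 6.67% higher and 6.89% lower. At a threshold of 1.5-fold, chosen after the values were seen, 4 of 10 genes were higher beside 10.9% of all named genes, and 1 was lower beside 15.1%. Of these 4, Slc11a2 lay right at the threshold, at 1.501-fold on its brightest probe and 1.476-fold on its dimmest. Fth1, Ftl1 and Ireb2 differed by less than the SD between probes of a gene, and Slc11a1, at 0.33, by about that SD.

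**Figure D1:**
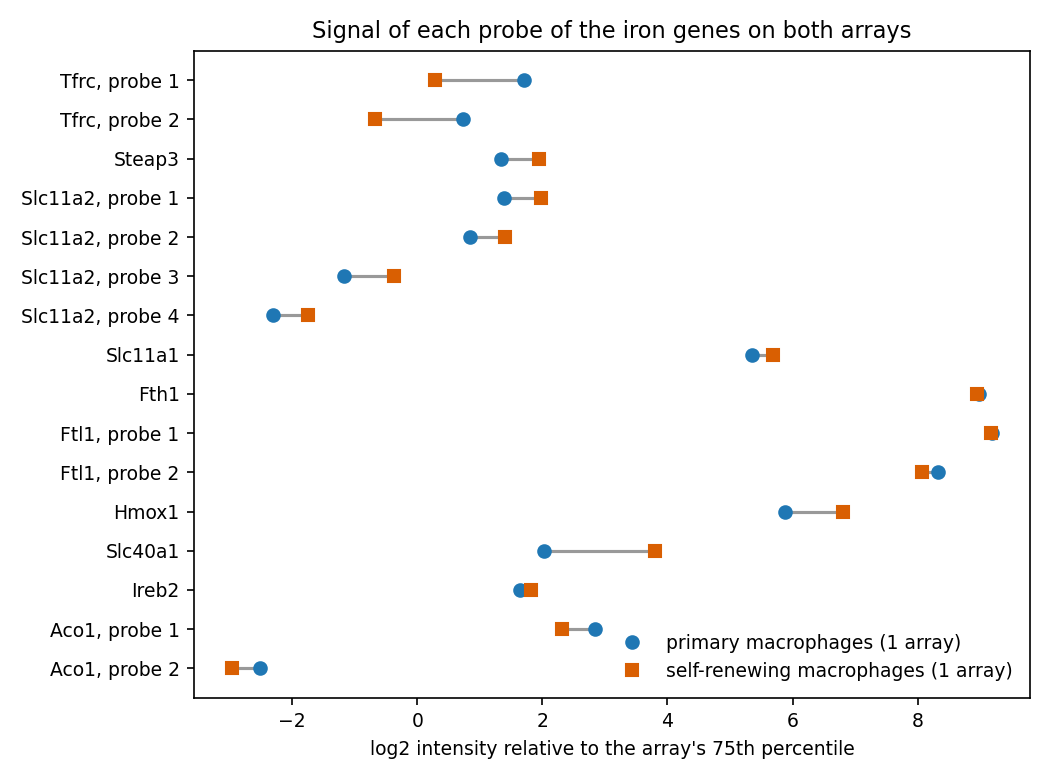
Levels of the 10 iron genes on the primary and the self-renewing array, as log2 intensity relative to each array's 75th percentile, with 1 row per probe, circles for the primary and squares for the self-renewing array. Slc40a1 lies at 2.03 and 3.80 and the brighter Tfrc probe at 1.70 and 0.29, while the circles and squares of Fth1 and of the brighter Ftl1 probe coincide; positions of different probes cannot be compared.

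Tfrc encodes the transferrin receptor, the main route of iron into dividing cells, and its mRNA was lower in the self-renewing macrophages. The brighter of its 2 probes read 1410.1 in the primary and 544.7 in the self-renewing macrophages. The difference was -1.41, or 2.66-fold lower. The other probe read 719.0 and 280.8, a difference of -1.40, so the probes lay 0.02 apart, closer than the SD between probes of a gene. Among 14003 named genes measured on both arrays, 3.17% were at least as far below 0 as Tfrc. The 10 proliferation markers were also all lower in the self-renewing sample, among them Pcna, the sliding clamp of DNA replication, at -1.52. The part of cell division in the Tfrc difference was not tested.

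A start site of Tfrc is shown because, of the iron genes with a promoter entry, Tfrc alone held any of 3 searched motifs. The RefSeq table of promoters, assembly GRCm38.p6, held 12 windows of 300 bases for 7 of the 10 genes, reaching from 250 bases before a start site to 50 bases from it on, and entries for Slc40a1, Hmox1 and Slc11a2 were missing. The stretch below is chr16:32608856-32608935 on the plus strand, 40 bases to either side of the start. Capitals mark ACGTG, the core bound by hypoxia-inducible factors, at position -2 from this start site, and TGACGT, the core of a cyclic AMP response element, at position 14. From another annotated start site of Tfrc the same matches lie at positions -228 and -213.
Tfrc promoter: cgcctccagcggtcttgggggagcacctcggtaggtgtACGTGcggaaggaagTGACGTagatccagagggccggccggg

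Searched on both strands, ACGTG was present in 19.6% of all 32851 promoter windows and TGACGT in 7.51%. The antioxidant response core TGACNNNGC, which BACH1 and NRF2 bind with their small MAF partners, was present in 12.4% of all windows and in 0 of the 12 windows of these genes. Hmox1 and Slc40a1 had no window, so that count does not cover them. The motifs marked in the stretch do not overlap. Such matches describe the letters of the window and say nothing of binding in these cells.

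Steap3 and Slc11a2 act after the receptor, and both were moderately higher, opposite to Tfrc. Steap3, the endosomal ferrireductase, read 1095.0 in the primary and 1716.6 in the self-renewing macrophages, a difference of 0.61 or 1.52-fold on 1 probe. Slc11a2 encodes DMT1, which carries ferrous iron out of the endosome, and was covered by 4 probes. The brightest read 1140.3 and 1760.9, a difference of 0.59. All 4 probes lay on the same side, from 0.55 to 0.81, including the 1 probe designed on another transcript accession of the gene, which read 87.7 and 133.2. Of the genes measured on both arrays, 9.83% were at least as far above 0 as Steap3 and 10.4% as Slc11a2. The difference of Steap3 exceeded that of Tfrc by 2.02. The genes of the transferrin route thus did not differ in 1 direction at the mRNA level.

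Slc11a1 encodes NRAMP1, which moves metal ions out of the phagosome, and C57BL/6 mice carry a loss-of-function allele of it. Its probe read 17784.3 in primary and 22996.9 in self-renewing macrophages. This difference of 0.33, or 1.26-fold higher, was about the SD between probes of a gene, and 20.9% of genes were at least as far above 0. It was smaller than that of its relative Slc11a2 by 0.26, which is also within that SD. The array measures the mRNA and not the function of the protein.

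**Figure D2:**
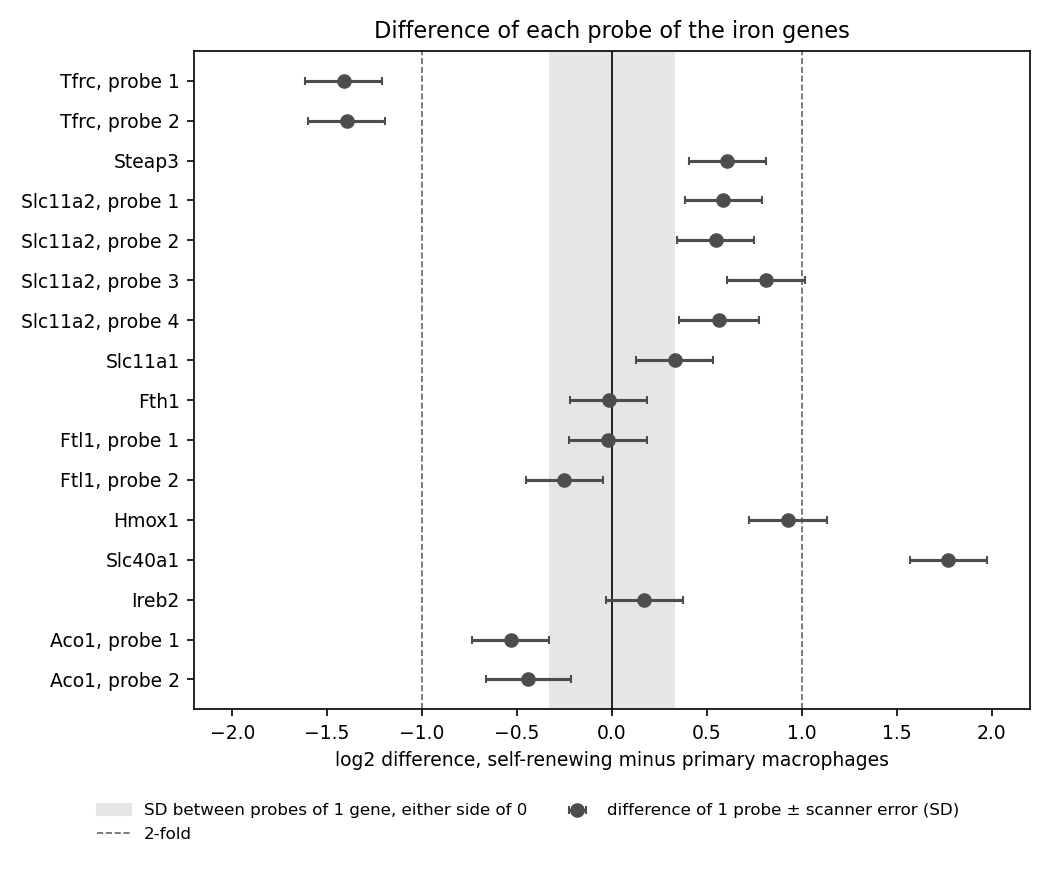
Difference of each of the 16 probes, self-renewing minus primary on the log2 scale (horizontal axis), with the scanner's error as 1 SD; the gray band marks 0.325 either side of 0, the SD between probes of 1 gene. Both Tfrc probes lie beyond 2-fold lower, Slc40a1 lies beyond 2-fold higher, the 4 Slc11a2 probes lie on 1 side and the 3 ferritin probes lie inside the band.

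The storage genes were nearly level between the cell types. Fth1, the heavy ferritin chain with ferroxidase activity, read 218028.4 and 221565.5, a difference of -0.02. Ftl1, the light chain that helps iron to mineralize in the shell, read 252347.2 and 255993.0 on its brighter probe, also -0.02. Its other probe read 139130.5 and 120331.1, a difference of -0.25. The direction on the Fth1 probe and the brighter Ftl1 probe turned with the scaling, each lying at 0.17 with the authors' scaled values, where the other Ftl1 probe lay at -0.06. The spots were bright but not at the limit, since the Fth1 spot reached 28.3% of the saturation value on both arrays and the brighter Ftl1 spot 32.1% and 33.1%. The ferritin genes also have near-identical copies, with 5 ferritin pseudogenes in the reference table, so the probes may not read these genes alone.

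Hmox1 encodes heme oxygenase 1, which opens the heme ring and frees its iron, and was higher in self-renewing macrophages. Its probe read 25533.8 and 49966.7, a difference of 0.93 or 1.90-fold. Of the genes on both arrays, 4.83% were at least as far above 0. The value stayed just short of 2-fold here and passed it under 2 other scalings, at 1.08 after quantile normalization and 1.12 with the authors' scaled values.

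Slc40a1 encodes ferroportin, the iron exporter of animal cells and the target of hepcidin. It read 1766.1 in the primary and 6202.2 in the self-renewing macrophages, so the level moved from 2.03 to 3.80. The difference of 1.77, or 3.41-fold higher, was the largest among the 10 genes in either direction, and 1.49% of the genes on both arrays were at least as far above 0. It rests on 1 probe. The distance between Slc40a1 and Tfrc, the exporter and the importer, was 3.18, and a constant factor for an array, such as the percentile used here, does not enter it. In bulk samples such as these, fewer cells of a type and less RNA per cell cannot be told apart.

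Ireb2 and Aco1 encode the iron regulatory proteins, of which the Aco1 product also serves as the cytosolic aconitase when it holds an iron-sulfur cluster. Ireb2 read 1359.2 and 1573.7, a difference of 0.17 that was smaller than the scanner's error. Aco1 was lower, reading 3113.7 and 2212.5 on its brighter probe, a difference of -0.53 or 1.45-fold. The dim probe of Aco1, at 75.8 and 57.4, lay on the same side at -0.44. The regulators were 0.70 apart, and 12.8% of genes were at least as far below 0 as Aco1. Their binding to mRNA is set by iron and oxygen largely after transcription and was not measured.

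**Figure D3:**
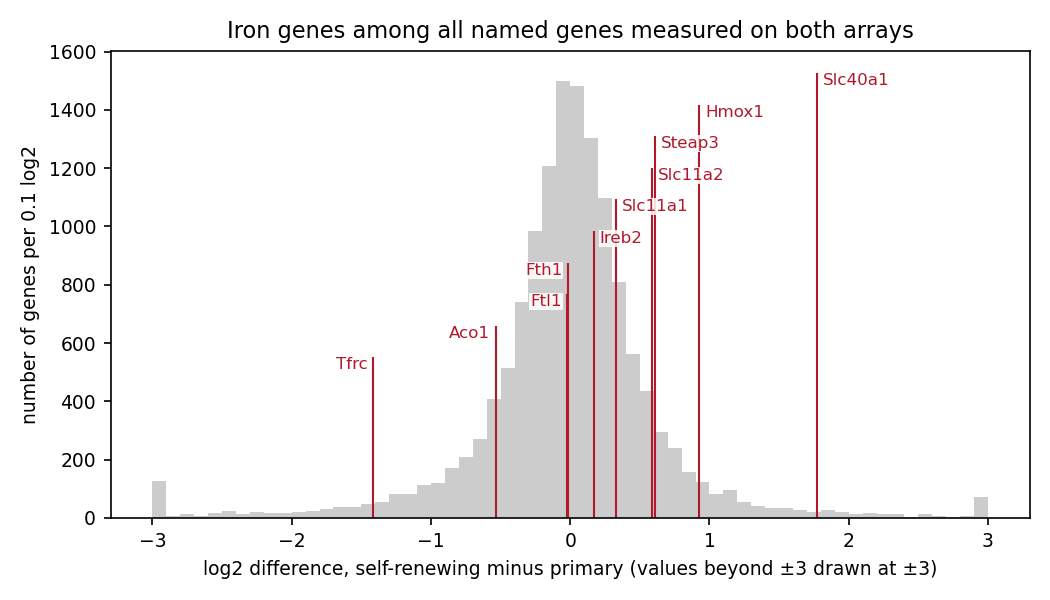
Distribution of the difference over the 14003 named genes well above background on both arrays, in bins of 0.1 on the log2 scale, with the 10 iron genes as red lines whose heights only separate the labels. The middle 90% of genes span -1.07 to 0.91, and Tfrc, Hmox1 and Slc40a1 fall outside this span.

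Other genes of iron and heme handling were described from lists chosen by function, also with earlier results of these data known. The genes at least 2-fold away from 0 and the brightest of each list are named, and any further gene was chosen after its value was seen. Of 15 other genes of iron entry and reduction, 9 had a value, with a median of -0.07. None was 2-fold higher and 2 were 2-fold lower. Lcn2, which binds iron-loaded siderophores, read 664.3 and 65.6, or 10.4-fold lower. Ltf, the iron-binding lactoferrin of neutrophil granules, read 484.3 in the primary sample on its 1 probe. It was not well above background in the self-renewing sample, at least 37.9-fold lower, a bound set by the dimmest signal well above background. With the normexp background correction the difference of Lcn2 was -2.60 and the bound of Ltf -3.08, in place of -3.38 and -5.24. Both genes are also on the list of neutrophil markers. Lrp1, a receptor that takes up heme bound to hemopexin, had the highest signal of the list and differed by 0.33. Hfe, the hemochromatosis gene whose product binds the transferrin receptor, read 2419.1 and 4896.4, a difference of 0.98 on 1 probe.

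Of 12 genes of iron export and hepcidin signaling, 5 had a value and 7 were not well above background on either array. Among the 7 were Hamp, the gene of hepcidin, Hjv, the gene of hemojuvelin, and the BMP ligands Bmp6 and Bmp2. The median of the 5 was 0.10. Neo1, a coreceptor with hemojuvelin in BMP signaling, was the 1 gene past 2-fold, reading 83.0 and 2077.6, or 24.3-fold higher on 1 probe, a difference of 4.60 that was 3.83 with normexp. Furin, a protease that cleaves prohepcidin, differed by 0.10. The copper ferroxidases that work beside ferroportin were dim: Cp read 33.9 and 36.4, and Heph read 28.8 and 30.9. Both ferroxidases differed by 0.06, with scanner errors of 0.25 for Cp and 0.27 for Heph, where Slc40a1 differed by 1.77. Signals this dim limit what the ferroxidase values show.

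Of 11 genes of iron storage and chaperones, 10 had a value, with a median of -0.10. Pcbp3, a relative of the PCBP chaperones that load iron into ferritin, was 2.10-fold higher, with its 2 probes at 1.07 and 1.25, and short of 2-fold with normexp, at 0.98. Pcbp1, the chief ferritin chaperone, had the highest signal and differed by -0.11. Ncoa4, which takes ferritin to the lysosome for breakdown, differed by 0.32. No other gene of the list passed 2-fold.

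All 11 genes of the list for control of the iron regulatory proteins and their partners had a value, with a median of 0.11. Fbxl5, the iron-sensing subunit of the ligase that removes IRP2, differed by 0.08. Epas1, the hypoxia-inducible factor HIF-2α whose mRNA carries a hairpin for the iron regulatory proteins, read 322.8 and 1883.1, or 5.67-fold higher on 1 probe. With normexp the difference of Epas1 was 2.07, in place of 2.50. Hif1a, a relative of Epas1, read 3346.1 and 2517.3, a difference of -0.45. The difference between these relatives was 2.95 without normexp.

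Of 16 genes of heme uptake, breakdown and transport, 15 had a value, with a median of 0.13. The scavenging of free hemoglobin was represented by Hp, haptoglobin, and by Cd163, the receptor of its complex with hemoglobin. Hp read 403.1 and 102.7, or 4.04-fold lower, and Cd163 read 242.4 and 67.2, or 3.71-fold lower, each on 1 probe. The differences of -2.01 and -1.89 became -1.64 and -1.27 with normexp. Abcg2, a transporter that can export heme and porphyrins, was 2.15-fold higher on 1 probe. The steps after Hmox1 differed less: Blvrb and Blvra, the biliverdin reductases, lay at 0.21 and 0.46. Spic, a transcription factor of red pulp macrophages that promotes Slc40a1, read 218.9 and 339.7, a difference of 0.59, while Slc48a1, which moves heme out of the phagolysosome, differed by 0.40. Bach1, the heme-sensing repressor of Hmox1 and Slc40a1, differed by 0.32 and Nfe2l2, their activator NRF2, by 0.50. Blvrb had the highest signal of this list.

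**Figure D4:**
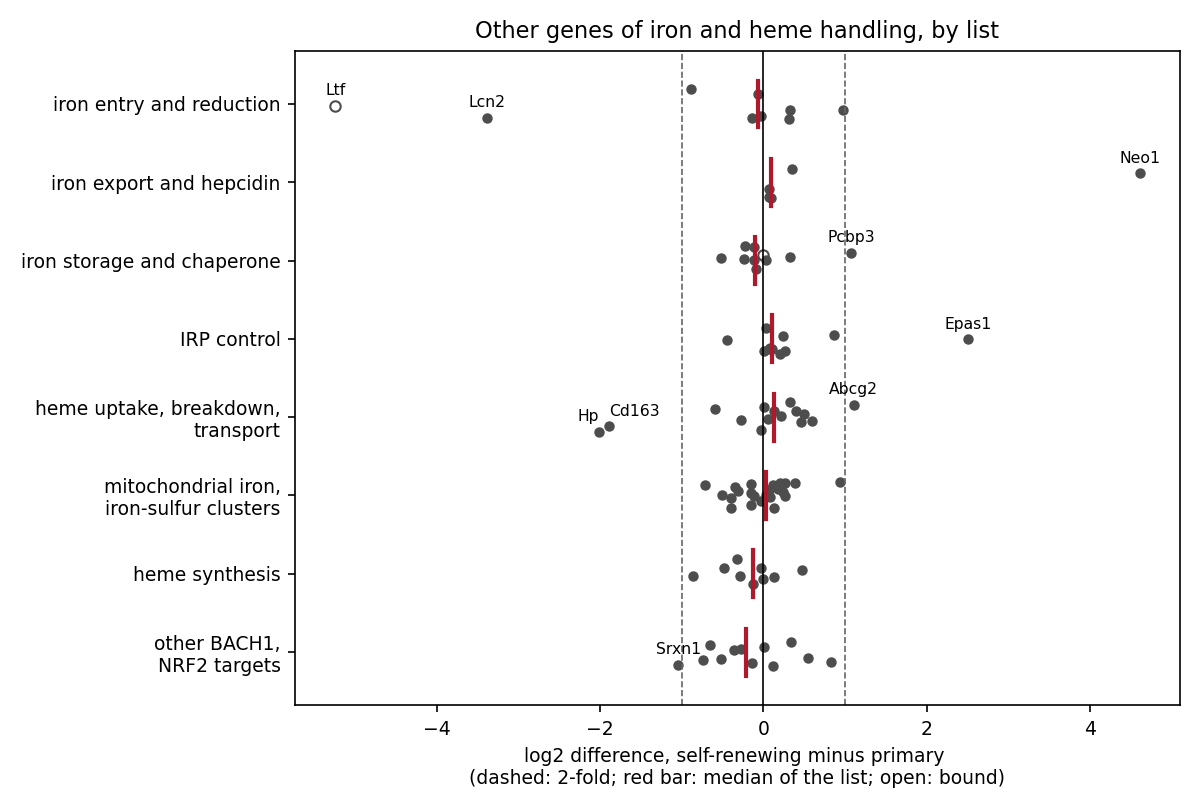
Differences of other genes of iron and heme handling, self-renewing minus primary on the log2 scale (horizontal axis), by list; each point is a gene, an open point is a bound for a gene detected in the primary sample alone (Scara5, at 0, has no fold), and red bars are medians of the lists. All 8 medians lie between -0.21 and 0.13, and the named points are those at least 2-fold away from 0.

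Markers of cell types also differed between the samples. All 9 macrophage markers were well above background on both arrays, with a median of 0.39 and a summed log2 level of 9.78 in the primary and 10.2 in the self-renewing sample. Mertk, a receptor for engulfing dying cells, was 4.68-fold higher and Fcgr1, an IgG receptor, 3.39-fold lower, each on 1 probe. Of 9 neutrophil markers with a value, 7 were at least 2-fold lower, with a summed level of 6.72 against 2.72, and 3 were with only genes on both arrays. S100a9 read 25449.5 and S100a8 10196.9 in the primary sample, while in the self-renewing sample both were below the background limit, as was Ltf. Of 8 erythroid markers with a value, 4 were at least 2-fold lower, with a summed level of 1.59 against 0.05. The count was 2 with normexp and 2 with only genes on both arrays, where the median went from -1.18 to -0.57 and -0.47. Alas2 was not well above background on either array. Hba-a1, a globin gene, read 490.6 and 153.9. The part of neutrophil or erythroid RNA in the differences of the iron genes was not tested, Lcn2, Ltf and Hp included.

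Of the other lists, 2 of 4 B cell markers with a value were at least 2-fold lower, Cd79b among them, with a summed level of 0.95 against -1.80, and with only genes on both arrays 0 were. None of 3 T cell markers differed by 2-fold, with a summed level of 3.00 against 2.95, and of the fibroblast markers only Col1a2 had a value, at 0.69. Of 10 proliferation markers 5 were at least 2-fold lower, with a median of -0.93 and a summed level of 8.22 against 7.12.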

How the data were processed

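RNA of 1 culture per cell type was hybridised to Agilent mouse arrays with 1 dye. The authors deposited scanner output of Feature Extraction 11.5.1.1, with an intensity per spot after background subtraction and detrending, its error, and flags for background, saturation and outliers. They also deposited the same intensity times 1 constant per array, 1.07 and 1.19, the reason for which is not given in the sources used here.

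Outlier spots, 63 per array, and control spots were left out, spots of a probe were averaged, and log2 intensity was taken relative to each array's 75th percentile. Accessions matched 32988 of 56598 probes in a RefSeq table of GRCm38.p6, used for names only since the array design names an earlier assembly. For each gene the brightest probe by mean log2 signal was used, among those the scanner called well above background in either sample, and a probe called so in 1 sample gave a bound. Differences were read by size at 2-fold, because 1 array per group allows no test and its number limits the precision. On simulated arrays the calculation was checked.

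The text names all 10 iron genes, in each of the 8 iron and heme lists the genes past 2-fold and the brightest 1 or 2, and up to 3 genes per marker list beside those of the iron lists; any others were picked with their values known. Values of some listed genes are not reported here. The members and lists were chosen with earlier results of these data known. The alternatives were normexp with an offset of 50 on median signals, quantile normalization, the authors' scaled values, the 75th percentile or the median of probes detected in both samples, no filter, only genes on both arrays, and the mean or the dimmest probe of a gene. A threshold of 1.5-fold was added after the data were seen. Python 3.11.15, numpy 2.4.6, pandas 2.3.3, matplotlib 3.10.9, R 4.3.3 and limma 3.58.1 were used.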

Additional observations from a re-analysis of the deposited data

How the results depend on the processing

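No paired analysis was possible because there is 1 array for each cell type. Under the 9 alternatives none of 90 values of the 10 iron genes moved by more than the SD between probes of a gene. Slc40a1 ranged from 1.71 to 1.96, Hmox1 from 0.91 to 1.12, Slc11a2 from 0.56 to 0.77, Steap3 from 0.59 to 0.80, Tfrc from -1.43 to -1.23 and Aco1 from -0.56 to -0.35. Fth1 kept its direction in 8 of 9 alternatives and Ftl1 in 7 of 9. Slc40a1 was the 1 iron gene at least 2-fold higher. Hmox1 joined it after quantile normalization, at 1.08, and with the authors' scaled values, at 1.12. At the threshold of 1.5-fold, 4 iron genes were higher beside 10.9% of all named genes. Of these 4, Slc11a2 was at 1.501-fold and fell below the threshold in some alternatives, such as 1.476-fold with its dimmest probe. With the authors' scaled values, which shift every difference up by construction, 1 gene each of the entry, mitochondrial and BACH1 and NRF2 target lists and 2 of the list for control of the iron regulatory proteins were 2-fold higher, and 0 of the BACH1 and NRF2 targets were 2-fold lower, as also after quantile normalization. Without a filter, 3 export genes were higher and 2 lower, and 2 storage genes were higher. With normexp 0 storage genes were higher, and of all named genes 2.77% were higher and 4.83% lower. With only genes on both arrays 5.58% were lower, and 1 entry gene was, since Ltf has no value there. The 112 values of single iron gene probes moved by less than that SD, as did 73 of 80 values of the other genes past 2-fold. Medians turned with the authors' scaled values to 0.12 for the entry list, where no filter also gave 0.01, and to 0.07 for the storage list, and to -0.04 for the mitochondrial list with the mean or the dimmest probe. Signal limits the dim genes, such as Cp, Heph and Hamp2.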

Other observations

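All 23 genes of mitochondrial iron import and iron-sulfur cluster assembly had a value, the median was 0.03, and none was 2-fold higher or lower, where the authors' scaled values put 1 at 2-fold higher. Cisd1, an iron-sulfur protein of the outer mitochondrial membrane, had the highest signal and differed by 0.23. Iscu, the scaffold on which clusters are built, read 3831.8 in the primary and 7525.2 in the self-renewing macrophages, or 1.91-fold higher on 1 probe. The probes of Cisd2 did not run together, at -0.72 and 0.11.

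Of 10 genes of heme synthesis 9 had a value, with a median of -0.13 that turned to 0.06 with the authors' scaled values. Alas1, the enzyme of the first step, read 16452.1 and 9296.6, and its 3 probes lay between -0.94 and -0.74. Alas2, the erythroid form of that enzyme, was not well above background on either array. Tmem14c, a porphyrin carrier of the inner mitochondrial membrane, had the highest signal and read 31182.0 and 32027.0.

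Hmox1 shares the factors BACH1 and NRF2 with other antioxidant genes, of which 12 were listed and had a value. Their median was -0.21, and -0.02 with the authors' scaled values. Srxn1, which repairs oxidized peroxiredoxins, was the 1 gene past 2-fold, reading 20387.8 and 10166.7, or 2.06-fold lower on 1 probe. Its difference of -1.04 was -0.86 with the authors' scaled values. Taldo1, an enzyme of the pentose phosphate pathway, had the highest signal and differed by 0.01. Gclm, a subunit of the enzyme that starts glutathione synthesis, lay at 0.55 and Nqo1, a quinone reductase, at -0.74.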
